A study of Mus musculus with 22 samples.

Results

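The nuclear-encoded subunits of the oxidative phosphorylation complexes were described in the hippocampus of TgproNGF#3 and WT mice. Members were the genes whose symbol marks a structural subunit of complexes I to V and that a probe reached through its RefSeq transcript, with assembly factors left out. These were 84 of the 21150 genes with a symbol, measured by 113 of 55681 probes: 37 genes of complex I, 4 of complex II, 8 of complex III, 18 of complex IV and 17 of complex V. A single probe represented 62 of the genes, and up to 5 probes the other 22. The rule used the symbols only, so no expression value entered it, although the members were chosen with earlier results of these data known.

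TgproNGF#3 mice carry a transgene for a furin-resistant form of proNGF, the precursor of nerve growth factor, followed by an IRES and EGFP and driven by the Thy1.2 promoter, which is active in neurons. They descend from founder line #3, on the C57Bl/6xDBA/2 background shared by their WT controls, and neither genotype was treated. The right hippocampus was taken at 1 month (4 TgproNGF#3 and 4 WT males), at 3 months (4 TgproNGF#3 and 4 WT males) and at 12 months (3 TgproNGF#3 and 3 WT females). RNA of each mouse was hybridised to 1 Agilent one-colour array, and the arrays of each age lay on a slide of their own, so that age, slide and, at 12 months, sex cannot be told apart. Other founder lines were not analysed here.

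Of the spots on an array, 69.8 to 80.3% were well above background at 1 month, 57.6 to 64.7% at 3 months and 60.7 to 67.7% at 12 months, and no spot was saturated. A level below is the log2 processed signal of a probe minus the 75th percentile of its array, so a difference of 1 is a 2-fold change, and each gene is represented by its brightest probe. Levels of different probes are not compared with each other, since a probe's brightness also depends on its sequence. Arrays of the same group correlated with r between 0.973 and 0.995 across probes. All 8 neuronal and all 6 hippocampal neuron markers were detected on all 22 arrays. In whole hippocampus, fewer cells that express a gene and less RNA per cell cannot be told apart.

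Oxidative phosphorylation passes electrons from NADH (through complex I, NADH dehydrogenase) and from succinate (through complex II, succinate dehydrogenase) to complex III, cytochrome bc1, and on to oxygen at complex IV, cytochrome c oxidase, while complex V, the ATP synthase, uses the resulting proton gradient to make ATP. Most subunits are encoded in the nucleus, a minority in mitochondrial DNA, and neurons depend on the pathway for the ATP that ion pumping and synaptic transmission consume. No probe was matched to the 13 subunits encoded in mitochondrial DNA, which were not analysed here. Ndufa4 is counted under complex I by its symbol, although its protein is now assigned to cytochrome c oxidase. Of the 84 members, 83 were tested: Cox8c, an isoform found mainly in testis, was not well above background on any array.

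Promoter sequences from RefSeq (GRCm38.p6, 250 bases before to 50 after the start site) matched 68 of the 84 members. Ndufa4, counted under complex I by its symbol only, and Ndufa8 were the 2 genes that passed the adjusted test of genotype described below. Complex III held the pair with opposite signs at the same age, Uqcrc1 and Uqcrfs1. The promoters of both pairs are printed 5′ to 3′ on the gene's strand. The first pair was chosen for that test and the second for its contrast within 1 complex, where neither gene passed the test. Capitals mark an NRF1 core (CGCATGCG) in Ndufa8 and Uqcrc1 and a cyclic AMP response element (TGACGTCA) in Uqcrfs1, and the start site follows base 250. The Ndufa4 window lies at chr6:11907401-11907700 (minus strand), Ndufa8 at chr2:36049289-36049588 (minus), Uqcrc1 at chr9:108936398-108936697 (plus) and Uqcrfs1 at chr13:30545267-30545566 (minus).
Ndufa4: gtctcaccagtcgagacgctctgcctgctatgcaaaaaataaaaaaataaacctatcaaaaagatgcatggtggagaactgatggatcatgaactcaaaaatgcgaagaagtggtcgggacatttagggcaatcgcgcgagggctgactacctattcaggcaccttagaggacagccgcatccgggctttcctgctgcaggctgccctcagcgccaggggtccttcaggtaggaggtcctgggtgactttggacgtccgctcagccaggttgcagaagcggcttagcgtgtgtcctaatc
Ndufa8: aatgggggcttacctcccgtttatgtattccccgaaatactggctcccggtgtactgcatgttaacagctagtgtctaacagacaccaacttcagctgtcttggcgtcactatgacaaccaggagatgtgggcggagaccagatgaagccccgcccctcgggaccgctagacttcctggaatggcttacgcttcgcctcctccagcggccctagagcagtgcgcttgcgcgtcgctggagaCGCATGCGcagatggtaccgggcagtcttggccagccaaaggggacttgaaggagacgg
Uqcrc1: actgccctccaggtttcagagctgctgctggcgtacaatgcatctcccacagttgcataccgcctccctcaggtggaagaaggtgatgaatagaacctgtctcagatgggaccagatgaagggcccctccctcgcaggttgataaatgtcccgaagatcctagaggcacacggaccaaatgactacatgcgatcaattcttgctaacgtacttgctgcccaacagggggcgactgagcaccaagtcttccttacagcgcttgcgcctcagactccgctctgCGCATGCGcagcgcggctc
Uqcrfs1: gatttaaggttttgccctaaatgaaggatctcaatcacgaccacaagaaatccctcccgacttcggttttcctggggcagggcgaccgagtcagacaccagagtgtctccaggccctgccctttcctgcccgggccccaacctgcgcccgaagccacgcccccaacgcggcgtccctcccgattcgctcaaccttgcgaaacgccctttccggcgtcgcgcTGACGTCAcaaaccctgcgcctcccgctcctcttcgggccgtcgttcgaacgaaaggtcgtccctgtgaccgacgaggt

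None of the searched motifs was found in the Ndufa4 window. The NRF1 core began at base 242 in Ndufa8 and at base 282 in Uqcrc1, which is on either side of the start site, and the cyclic AMP response element began at base 222 in Uqcrfs1. Over both strands, the NRF1 core was present in 13.2% of the member genes (9 of 68) and in 2.07% of all genes with a promoter in the table. The YY1 motif (AAGATGGC) was present in 14.7% of members (10 of 68) and in 3.19% of all genes, and the ETS core (CCGGAAGT) in 7.35% (5) and 4.31%. The cyclic AMP response element was found in 5.88% of members (4) and 2.03% of all genes, the ERR site (TCAAGGTCA) in 2.94% (2) and 0.466%, and the TATA box (TATAAA) in 11.8% (8) and 15.7%. Member promoters had a median GC content of 57.3%, against 52.7% over all promoters. These matches describe the sequence only.

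At 1 month no subunit gene passed a test of genotype. None of the 83 tested members reached an unadjusted p below 0.05 in either direction, where 2.11% of all 17179 genes tested did so with a higher and 0.739% with a lower level in TgproNGF#3. With a 2-fold change required as well, 0.175% of all genes were called higher and 0.169% lower, and again 0 members. No gene on the array passed an adjusted p below 0.05 (limma). With the authors' own log2 values, 2 of 82 members were lower at an unadjusted p below 0.05, where 2.41% of all genes were. The median log2 fold change of the members was 0.01, against 0.07 over all genes, and single members ranged from −0.34 (Cox6a2, the heart and muscle isoform of a cytochrome c oxidase subunit) to 0.21 (Atp5d, the delta subunit of the ATP synthase). The arrays of the genotypes lay in different columns of this slide.

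At 3 months Ndufa4 and Ndufa8 fell in TgproNGF#3, and no member rose at an adjusted p below 0.05. The 2 genes that fell are 2.41% of the 83 members, where 4.48% of all 15720 genes tested were lower and 2.05% higher at that threshold (limma, Benjamini-Hochberg over all probes). Called at an unadjusted p below 0.05 together with a 2-fold change, Ndufa4 was the only member (1.2%), where 3.36% of all genes were called lower and 0.776% higher. At an unadjusted p below 0.05 alone, 20 members were lower (24.1%; all genes 15.3%) and 3 higher (3.61%; all genes 9.6%). This balance depended on the setting: 9 members were lower and 10 higher with the percentile taken over all spots (all genes 10.3% and 18.2%), 6 and 7 with dim spots kept (8.6% and 14.7%), 7 and 9 with normexp background correction (7.87% and 12.1%), and 17 and 11 with the authors' values (12.8% and 17.3%). With the replicate number as a block 12 members were lower and 2 higher (all genes 12.2% and 6.38%). Without WT replicate 1 the counts were 10 and 2 (12% and 7.26%). Lower members numbered 13 without TgproNGF#3 replicate 2 (all genes 13%) and 13 without WT replicate 4 (11%). The median over the members was −0.09 and that over all genes −0.05, and 57 members had a lower and 26 a higher mean in TgproNGF#3. The sign of the members' median depended on the scaling: it was 0.04 when the percentile was taken over all spots and 0.05 with dim spots kept.

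**Figure D1:**
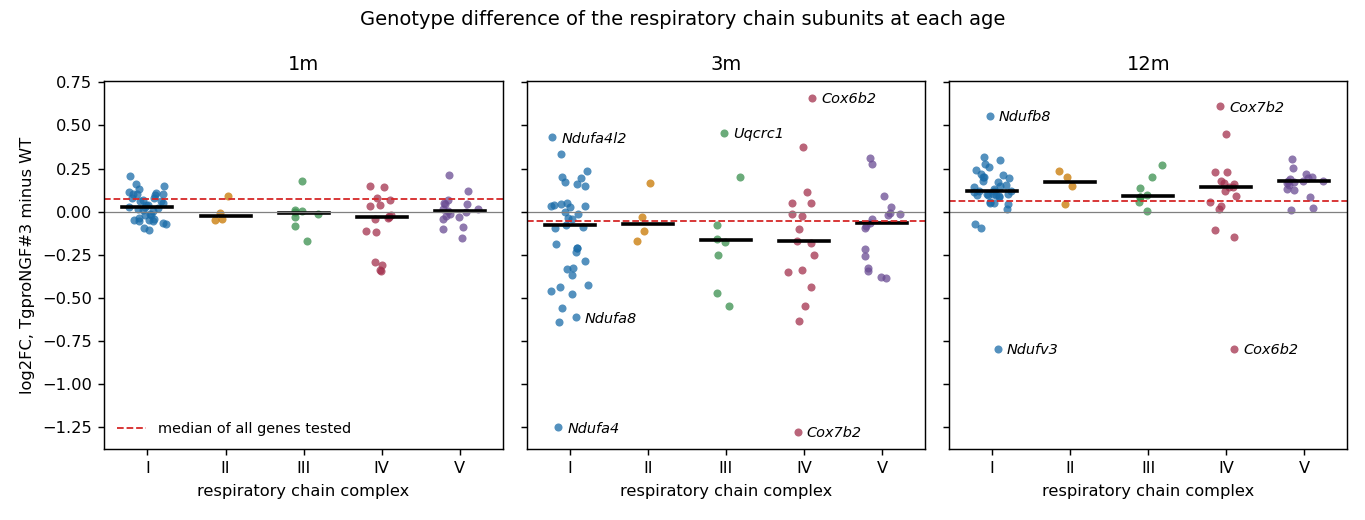
Each point is the log2 fold change of 1 subunit gene, TgproNGF#3 minus WT, by complex at 1, 3 and 12 months, with the median of each complex as a bar and that of all genes as a dashed line. At 3 months Ndufa4 lies at −1.25 and 57 of 83 points lie under 0 (46 lie above it with the percentile taken over all spots), while at 12 months 77 of 83 points lie above it.

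Ndufa4 had levels of 2.87, 3.00, 2.73 and 2.08 in the 4 TgproNGF#3 mice of 3 months and of 3.96, 3.96, 3.86 and 3.90 in their WT controls. All 4 transgenic mice lay below all controls, and also below the 14 mice of the other ages, whose levels ran from 3.54 to 4.30. The difference was −1.25 ± 0.20 (SE) on the log2 scale, a 2.38-fold lower signal (limma adjusted p = 0.00717; exact permutation p = 0.0286, two-sided, the smallest that 4 against 4 mice allow). The same contrast was 0.16 ± 0.22 at 1 month and 0.22 ± 0.13 at 12 months, with limma adjusted p-values of 1.00 and 0.597. The change of the genotype difference was itself tested: it was −1.41 ± 0.30 from 1 to 3 months (limma adjusted p = 0.018) and 1.47 ± 0.26 from 3 to 12 months (adjusted p = 0.00685). The former lost its call under 2 of 26 alternatives, with median scaling (adjusted p = 0.0819) and without WT 1m replicate 4 (adjusted p = 0.051), with the sign kept in each. The gene lies at chr6:11900372-11907450 in GRCm38.p6 and a single probe measured it.

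Ndufa8 encodes an accessory subunit of complex I with a cysteine-rich fold that faces the intermembrane space. Its levels at 3 months were 2.08, 1.75, 1.52 and 1.92 in TgproNGF#3 and 2.35, 2.37, 2.61 and 2.39 in WT, so the groups did not overlap. The difference was −0.61 ± 0.16 (limma adjusted p = 0.0427; exact permutation p = 0.0286, two-sided). At 1 month it was 0.01 ± 0.23 and at 12 months 0.17 ± 0.13, and the difference between 3 and 12 months was 0.79 ± 0.20 (limma adjusted p = 0.043). That last adjusted p lay above 0.05 under 18 of 24 alternatives, with the sign kept in each (0.62 to 0.89). The adjusted p of Ndufa8 at 3 months was close to the threshold: it lay above 0.05 under 8 of the other settings and without 6 of the 8 mice in turn, with the sign kept in each. Ndufa4 kept its sign and an adjusted p below 0.05 under all 21 alternatives, the highest being 0.0391 with the replicate number as a block.

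**Figure D2:**
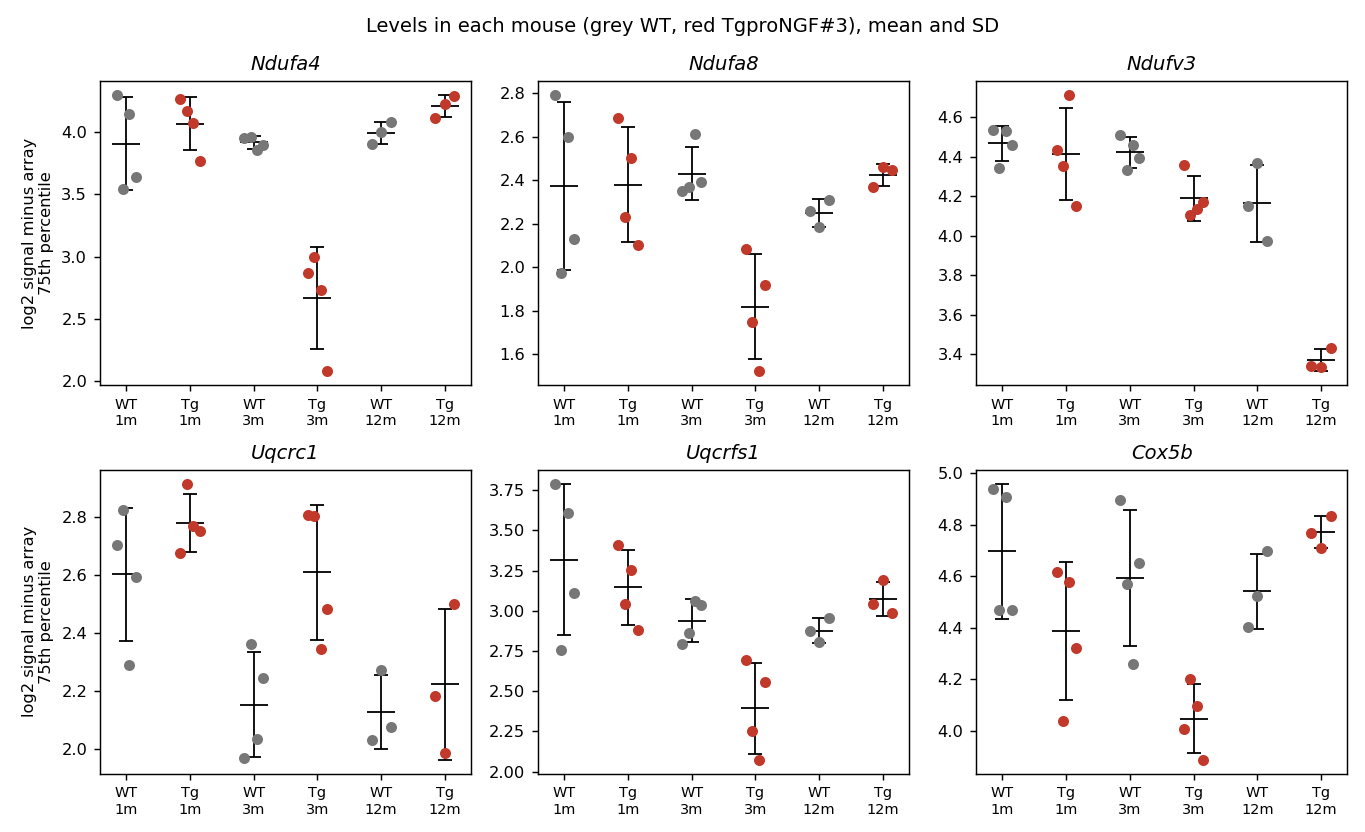
Level (log2 processed signal minus the 75th percentile of the array) of 6 subunit genes in each mouse, by age and genotype, with the mean and SD as bars. Ndufa4 shows 4 TgproNGF#3 mice of 3 months at 2.08 to 3.00 with all other mice at 3.54 or above, and Ndufv3 shows 3 TgproNGF#3 mice of 12 months at 3.34 to 3.43.

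The remaining members with an unadjusted p below 0.05 at 3 months did not pass the adjusted test, and those not fixed by role were named after their values were seen. In complex I they included 7 accessory subunits, which surround the catalytic core: Ndufc1 (−0.48), Ndufb2 (−0.46), Ndufb4 (−0.44), Ndufs5 (−0.43), Ndufa1 (−0.37), Ndufa11 (−0.56) and Ndufb11 (−0.33), with limma adjusted p-values of 0.0644 to 0.154. At the unadjusted threshold 15.3% of all genes were lower. The median over the 7 core subunits, which carry the flavin and the iron-sulphur clusters, was 0.04. That over the other 30 genes counted under complex I, which include Ndufa4 by its symbol, was −0.14.

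The core subunits Ndufs1 and Ndufv1 did not pass the adjusted test at 3 months. Ndufs1, which holds iron-sulphur clusters of the electron path, had a difference of 0.20 ± 0.12. Its levels were 3.43, 3.38, 3.31 and 3.19 in TgproNGF#3 and 3.21, 3.16, 3.04 and 3.11 in WT. The lowest transgenic value lay just under the highest control. Ndufv1, which binds NADH and the flavin, had a mean of 4.14 in both genotypes. Ndufa4l2, a paralogue of Ndufa4 known as a hypoxia-responsive gene, was measured near the background with levels of −2.15, −1.86, −1.97 and −2.26 in TgproNGF#3 and −2.37, −2.38, −2.80 and −2.41 in WT. The groups did not overlap, in the direction opposite to Ndufa4, and the difference of 0.43 ± 0.16 did not pass the adjusted test (limma adjusted p = 0.115).

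Complex II, whose 4 subunits also serve the tricarboxylic acid cycle, had no member with an unadjusted p below 0.05 at 3 months, and its median was −0.07. Sdha, the flavoprotein that oxidises succinate, differed by 0.16 ± 0.14 and Sdhb, the iron-sulphur subunit, by −0.03 ± 0.14.

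In complex III the differences at 3 months had both signs. Uqcrfs1, the Rieske iron-sulphur protein that takes electrons from ubiquinol, had levels of 2.70, 2.25, 2.07 and 2.55 in TgproNGF#3 and 2.80, 2.86, 3.06 and 3.04 in WT, with no overlap. Uqcrc1, a core protein of the matrix side, had levels of 2.81, 2.81, 2.34 and 2.49 in TgproNGF#3 and 1.97, 2.36, 2.04 and 2.25 in WT, where the lowest transgenic value lay just under the highest control. Neither difference passed the adjusted test: −0.55 ± 0.17 for Uqcrfs1 (limma adjusted p = 0.0749) and 0.46 ± 0.16 for Uqcrc1 (limma adjusted p = 0.110). Uqcrq, a small membrane subunit, differed by −0.47 ± 0.14, and the second core protein, Uqcrc2, by 0.20 ± 0.13.

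In complex IV, 4 of 17 members had a lower and 1 a higher level at an unadjusted p below 0.05, where 15.3% and 9.6% of all genes did. Cox5b, a zinc-binding subunit on the matrix side, had levels of 4.01, 4.20, 4.10 and 3.89 in TgproNGF#3 and 4.89, 4.57, 4.26 and 4.65 in WT. These groups did not overlap, and the difference was −0.55 ± 0.16 (limma adjusted p = 0.0684). Cox7a2 differed by −0.44 ± 0.15, Cox6b1 by −0.63 ± 0.22 and Cox6a1 by −0.35 ± 0.14. Of 21 alternatives, the unadjusted call was lost under 13 for Cox6a1, 5 for Cox7a2 and 1 each for Cox5b and Cox6b1, with the sign kept. Cox4i1 and Cox5a, which are placed early in assembly around the catalytic core, differed by −0.02 ± 0.13 and −0.01 ± 0.13.

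In complex V, 4 members had lower levels at an unadjusted p below 0.05: Atp5h (−0.38 ± 0.13), a subunit of the peripheral stalk, Atp5l (−0.34 ± 0.13) and Atp5mpl (−0.33 ± 0.13) of the membrane part, and Atp5g3 (−0.38 ± 0.15), 1 of 3 genes for the same c-ring protein. Their limma adjusted p-values lay between 0.0945 and 0.138. Over all genes 15.3% were lower at the unadjusted threshold. Of 21 alternatives, the call was lost under 4 for Atp5h, 8 for Atp5l, 9 for Atp5mpl and 12 for Atp5g3, with the sign kept. The other c-ring genes, Atp5g1 and Atp5g2, differed by −0.02 ± 0.13 and 0.03 ± 0.14, and the catalytic subunits Atp5a1 and Atp5b by −0.22 ± 0.14 and −0.04 ± 0.14.

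Among the tissue-specific isoforms of complex IV, none passed the adjusted test of genotype. Cox8b, the heart and muscle counterpart of Cox8a, ran from −2.95 to 1.44 over the 22 mice. Of the 5 muscle markers, 2 were measured on all 22 arrays and 2 on some of them, while Ckm was not well above background on any. Cox6b2, a testis isoform, differed by 0.66 ± 0.25 at 3 months (limma adjusted p = 0.125) and by −0.79 ± 0.39 at 12 months. Cox7b2 was not measured in 1 TgproNGF#3 mouse of 3 months, the other 3 gave −6.53, −6.35 and −4.26, and the WT values of −4.38, −2.97, −6.05 and −4.35 covered part of that range (−1.28 ± 0.75, limma adjusted p = 0.309). Cox4i2 and Cox7a1 differed by −0.11 to 0.15 and by −0.18 to −0.03 over the 3 ages, none with an unadjusted p below 0.05.

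Several probes of 1 gene did not always give the same fold change. At 3 months the spread between probes of a gene was over 0.5 on the log2 scale for 4 of the 22 genes with several probes, with a median spread of 0.175 and a largest of 1.12. That largest belonged to Ndufb11, an accessory subunit of complex I. Its dim probe gave −5.42, −5.04, −5.71 and −5.72 in TgproNGF#3 and −4.07, −4.11, −4.04 and −3.89 in WT, a difference of −1.44 ± 0.17 with no overlap (limma adjusted p = 0.0028), while its brightest probe gave −0.33 ± 0.13 (limma adjusted p = 0.154). For Uqcr10, a small subunit of complex III, the dimmest of 3 probes differed by −0.84 ± 0.20 (limma adjusted p = 0.0352) and the brightest by −0.18 ± 0.13. Whether such probes read different transcripts was not tested.

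**Figure D3:**
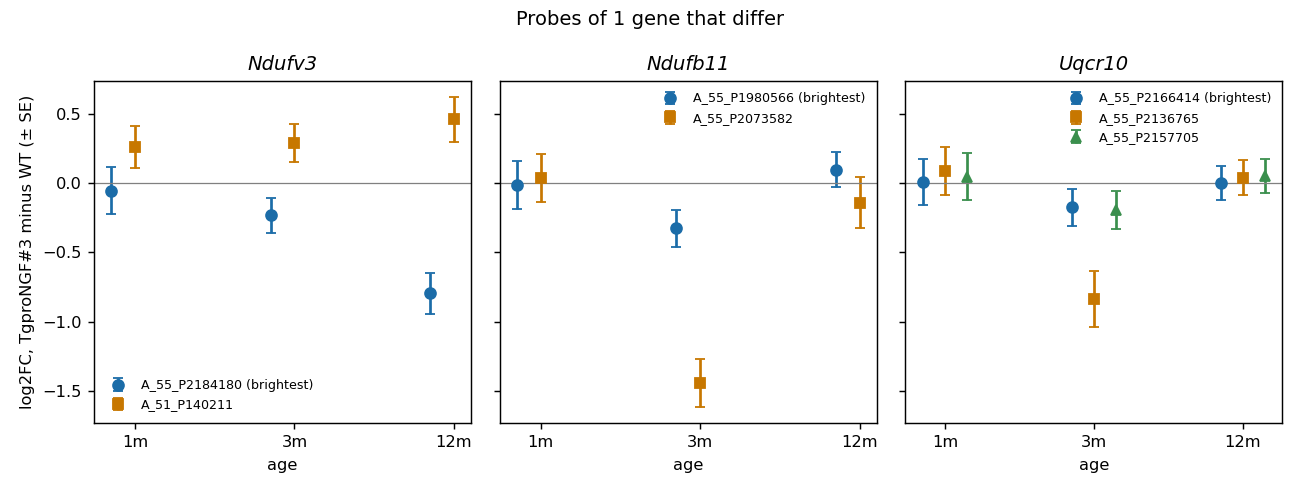
Log2 fold change (TgproNGF#3 minus WT) of every probe of Ndufv3, Ndufb11 and Uqcr10 at each age, with its SE as the bar. The Ndufv3 probes lie on opposite sides of 0 at 12 months (−0.79 and 0.46), and the Ndufb11 probes lie at −1.44 and −0.33 at 3 months.

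At 12 months most subunit genes had slightly higher means in TgproNGF#3, and none passed the adjusted test. Of the 83 members, 77 had a higher mean (92.8%), against 60.0% of all 15677 genes, and the medians were 0.14 and 0.06. With quantile normalization the members' median lay below that of all genes (0.09 against 0.11), and with the authors' values 64 members were higher, with medians of 0.06 and −0.01. At an unadjusted p below 0.05, 2 members were higher and 1 lower, where 3.89% and 4.19% of all genes were. With a 2-fold change required as well, 0 members were called, against 0.332% of all genes higher and 0.855% lower. No gene on the array passed an adjusted p below 0.05 in limma. Every member of complexes II, III and V had a higher mean (4, 8 and 17 genes), as did 34 of 37 in complex I and 14 of 17 in complex IV.

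The mean level over the 17 members of complex V lay between 4.44 and 4.49 in the 3 TgproNGF#3 mice and between 4.20 and 4.40 in the 3 WT mice, so the groups did not overlap. For complex II the lowest transgenic mouse lay just above the highest WT mouse, with no overlap (3.20 to 3.36 and 2.95 to 3.20). The groups overlapped for complex I (3.52 to 3.63 and 3.33 to 3.57), complex III (3.82 to 3.96 and 3.67 to 3.82) and complex IV (2.68 to 3.08 and 2.64 to 2.92). The lowest WT value of each complex came from the same mouse, replicate 1. The 3 TgproNGF#3 arrays lay in 1 row of the slide with WT replicate 3, the other WT arrays lay in the other row, and with the row as a block the members' median was 0.03 with 53 of 83 genes higher.

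**Figure D4:**
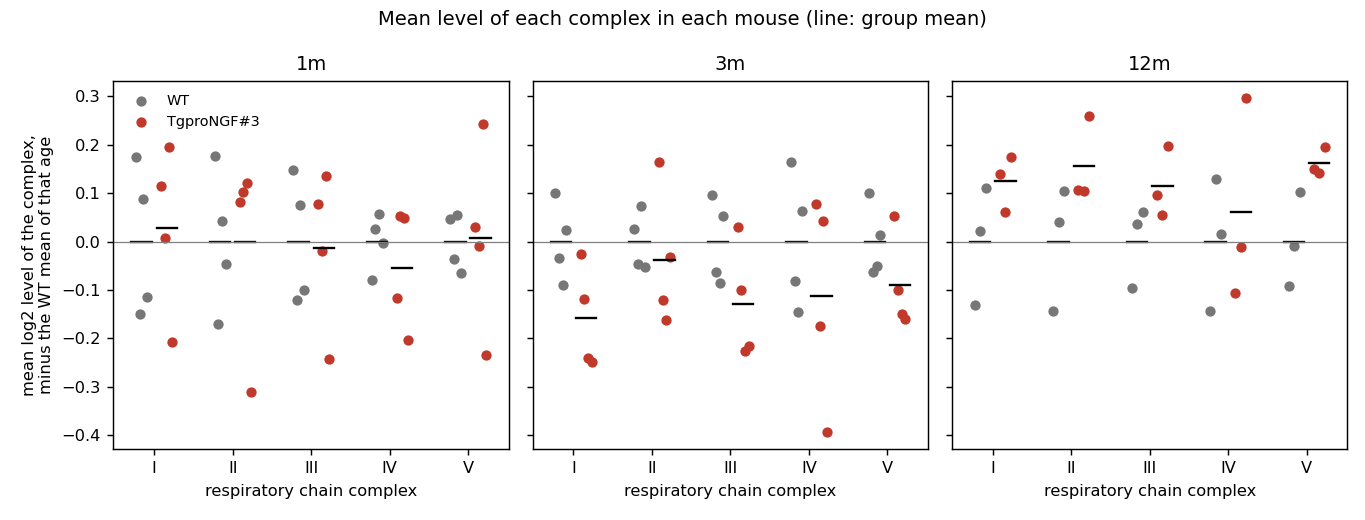
Mean level of the members of each complex in every mouse, minus the WT mean of that age (log2 scale), by age and genotype. The values of 3 months depend on the scaling as given in the text, and at 12 months the 3 TgproNGF#3 points of complex V lie above the 3 WT points.

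The member with a lower level at an unadjusted p below 0.05 at 12 months was Ndufv3, an accessory subunit of the NADH-oxidising module of complex I. Its brightest probe gave 3.34, 3.34 and 3.43 in TgproNGF#3 and 4.15, 4.37 and 3.97 in WT, a separation larger than the spread of either group. The difference was −0.79 ± 0.15 with a limma adjusted p of 0.549 (exact permutation p = 0.1, the smallest that 3 against 3 mice allow). The other Ndufv3 probe, much dimmer, gave −1.54, −1.66 and −1.22 in TgproNGF#3 and −2.10, −1.85 and −1.85 in WT, which is a difference of 0.46 ± 0.16 in the opposite direction. Averaged over both probes the gene differed by −0.17.

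The 2 members with a higher level at an unadjusted p below 0.05 were Ndufb8 and Cox7b2. Ndufb8, an accessory subunit of the membrane arm of complex I, had levels of 4.94, 4.78 and 4.93 in TgproNGF#3 and 3.97, 4.31 and 4.70 in WT. The groups did not overlap, with the WT mice widely spread (0.56 ± 0.20, limma adjusted p = 0.549), and the difference was 0.18 with the array row as a block. Cox7b2, measured near the background, differed by 0.61 ± 0.22, with 1 WT mouse not measured. Its call was lost under 6 of 15 alternatives, with the sign kept in each (0.38 to 1.31). Among the catalytic subunits of complex V, Atp5a1 differed by 0.17 ± 0.13 and Atp5b by 0.17 ± 0.13.

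The change of the genotype difference between ages was tested over all genes. From 1 to 3 months, Ndufa4 was the only member past the adjusted test, among the 1.22% of all genes with a more negative difference at 3 months, and 0 members were among the 0.0382% with a more positive one. From 3 to 12 months, Ndufa4 and Ndufa8 were among the 2.44% of genes whose difference became more positive, and 0 members among the 0.957% whose difference became more negative. The members' median change was −0.10 from 1 to 3 months (all genes −0.12) and 0.24 from 3 to 12 months (all genes 0.12). The sign of the former turned with dim spots kept (0.10), the percentile over all spots (0.10), normexp (0.12) and the authors' values (0.05). With quantile normalization the members lay below all genes from 3 to 12 months (0.13 against 0.14). Both tests use the mice of 3 months and are not independent of each other.

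In WT mice most subunit genes lay above the array's median in their change from 1 to 3 months, while the direction of that change was not settled. The median over all 15604 genes was −0.44 and that over the 83 members −0.11, so the members lay 0.33 above all genes, and 72 of them lay above the array's median. At an adjusted p below 0.05, 13 members fell (15.7%; all genes 43.3%) and 1 rose (1.2%; all genes 1.15%). The direction of these values depends on the scaling: with the percentile taken over all spots, the members' median was 0.35 (all genes 0.02), 30 members were higher and 2 lower at an adjusted p below 0.05, and 6.95% of all genes were higher and 4.7% lower. With dim spots kept the medians were 0.34 and 0.01. Over 10 other settings the members lay 0.12 to 0.33 above the median of all genes in each. Across the 83 genes the change correlated with the brightness of the probe (Pearson r = 0.334, Spearman rho = 0.539, across genes that share the same arrays). As the slide changed with age, a change with age and a difference between slides cannot be told apart.

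The complexes differed in their medians. Relative to the median of all genes, the median was 0.27 in complex I, 0.00 in complex II, 0.33 in complexes III and IV and 0.35 in complex V. Within complex I, the 7 core subunits lay 0.08 above all genes and the 30 other members 0.37 above. The members that fell were Ndufa10, Ndufb6, Ndufc2, Ndufs1, Ndufs7, Ndufs8 and Ndufv1 in complex I, Sdha, Sdhc and Sdhd in complex II, Uqcrc1 and Uqcrc2 in complex III and Atp5pb in complex V, of which Ndufs1, Ndufs8, Ndufv1, Sdhd and Uqcrc1 turned sign under at least 2 of the other scalings or background settings.

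**Figure D5:**
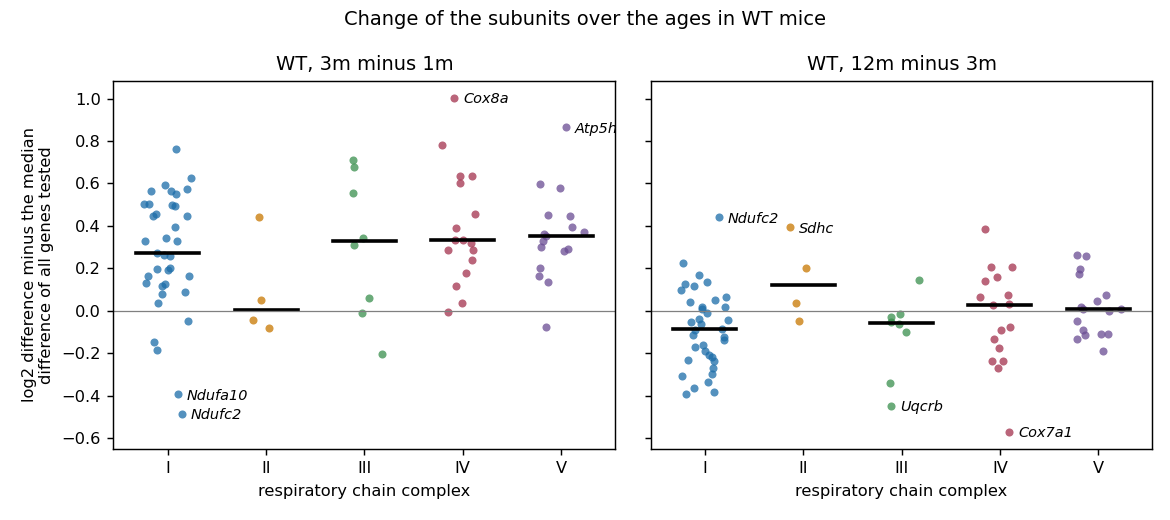
Log2 fold change of each subunit gene between ages in WT mice, minus the median of all genes, by complex. From 1 to 3 months 72 of 83 genes lie above 0, and from 3 to 12 months 36 do.

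The largest falls were those of Ndufc2 and Ndufa10, accessory subunits of complex I. Ndufc2 had levels of 4.36, 3.88, 4.21 and 3.81 at 1 month and 3.14, 3.22, 3.04 and 3.17 at 3 months, with no overlap (−0.92 ± 0.16, limma adjusted p = 0.00151). Ndufa10 had levels of 2.44, 2.23, 2.08 and 2.33 at 1 month and 1.33, 1.50, 1.45 and 1.49 at 3 months, again with no overlap (−0.83 ± 0.14, limma adjusted p = 0.00123). Relative to the median of all genes these changes were −0.48 and −0.39. Over 21 alternatives Ndufc2 ran from −1.15 to −0.45 and Ndufa10 from −1.06 to −0.37. Each lost its call under 1 of them, normexp. Atp5h was the member that rose by its brightest probe (4.67, 4.85, 4.89 and 4.62 against 5.31, 5.05, 5.19 and 5.19, a difference of 0.43 ± 0.14, limma adjusted p = 0.0257). The second probe of Atp5h, of similar brightness, gave 0.08 ± 0.14 (limma adjusted p = 0.661), and with the mean of both probes the gene differed by 0.25 (adjusted p = 0.132). Its adjusted p lay above 0.05 under 6 of 21 alternatives (this mean, median scaling, quantile normalization and without 1m replicate 4 or 3m replicate 1 or 4), and the sign was kept in all 21 (0.20 to 0.88). Cox8a, the common isoform of a small cytochrome c oxidase subunit, had the largest increase in mean, 0.57 ± 0.22, which did not pass the adjusted test (limma adjusted p = 0.0507).

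From 3 to 12 months no member passed the adjusted test in WT mice, where 5.26% of all genes were higher and 1.81% lower (limma), and 3 members were higher and 3 lower at an unadjusted p below 0.05, where 14% and 7.43% of all genes were. The members' median was −0.01 and that of all genes 0.04. The largest decreases in mean were those of Cox7a1 (−0.53 ± 0.18, limma adjusted p = 0.0849), a heart and muscle isoform, and Uqcrb (−0.41 ± 0.16). The largest increases were those of Ndufc2 (0.48 ± 0.18, limma adjusted p = 0.105) and Sdhc (0.43 ± 0.17), a membrane anchor of succinate dehydrogenase, and neither passed.

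Other genes of mitochondrial energy metabolism were described by list. No gene of these lists passed the adjusted test of genotype at 1 or 12 months. At 3 months, 1 of 47 assembly factors fell (Cox20, −0.52 ± 0.13, needed for cytochrome c oxidase assembly), 1 of 7 carriers and porins fell (Vdac1, −0.68 ± 0.17, the main pore of the outer membrane), and 1 of 16 glycolytic enzymes rose (Hk1, 0.59 ± 0.14, the brain hexokinase), with limma adjusted p-values of 0.0468, 0.0409 and 0.0297. Of 77 genes for mitochondrial ribosomal proteins, 3 rose (Mrpl38, 0.61; Mrps15, 0.54; Mrpl48, 0.71). Over the array 4.48% of genes were lower and 2.05% higher at this threshold, and nothing is read from counts of this size. None of 14 tricarboxylic acid cycle genes, 6 genes of pyruvate import and dehydrogenase, 14 regulators of nuclear respiratory genes or 3 respiratory chain genes outside the symbol rule passed. The list medians at 3 months lay between −0.09 and 0.08.

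At 12 months the medians of these lists lay between 0.12 and 0.37, beside 0.14 for the subunits and 0.06 for all genes. The highest was that of pyruvate import and dehydrogenase, with 5 of 6 genes higher, and 43 of 47 assembly factors and 67 of 77 mitochondrial ribosomal genes had higher means. In WT mice from 1 to 3 months the list medians lay between −0.16 for glycolysis and −0.55 for pyruvate import and dehydrogenase, beside −0.11 for the subunits.

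Cell type markers differed in mean beside these comparisons, and Fibcd1 at 3 months was the only marker past the adjusted test of genotype. At 12 months all 8 neuronal markers had higher means in TgproNGF#3 (median 0.24, with a mean level of 3.14 to 3.45 against 2.92 to 3.21). The hippocampal neuron markers had a median of 0.22 with 4 of 6 higher, and their mean levels did not overlap (0.02 to 0.20 against −0.26 to −0.07). The oligodendrocyte and the microglia markers each had lower means in 5 of 6 (medians −0.15 and −0.11), with mean levels that overlapped for oligodendrocytes (2.07 to 2.63 against 2.32 to 2.61) and not for microglia (0.63 to 0.71 against 0.73 to 0.91). All 6 choroid plexus markers had lower means (median −1.09, with mean levels of −1.33 to 2.19 against −1.08 to 2.80), and 5 of 6 leptomeningeal markers did (median −1.04, −1.92 to −1.16 against −0.90 to −0.26). At 3 months 5 of 6 hippocampal neuron markers had lower means (median −0.16, −0.66 to −0.31 against −0.31 to −0.09), of which Fibcd1, a marker of CA1 pyramidal neurons, fell by 0.93 (limma adjusted p = 0.00942). The 6 choroid plexus markers were lower in mean at 3 months too (median −0.92, −2.04 to 2.53 against 1.39 to 2.25, none past an unadjusted p of 0.05). All 6 leptomeningeal markers had higher means at 3 months (median 0.31), as did 5 of 8 neuronal markers (median 0.09), and 5 of 6 astrocyte markers had lower means (median −0.19). Of 6 oligodendrocyte markers, 4 had higher means (median 0.33), with 3 higher and 1 lower at an unadjusted p below 0.05, and none passed the adjusted test.

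In WT mice from 1 to 3 months the median of all genes was −0.44, and 43.3% of them fell past the adjusted test. Past it fell 5 of 6 oligodendrocyte (list median −1.10), 3 of 6 leptomeningeal (−1.12) and 4 of 6 astrocyte markers (−0.46). So did 2 of 6 hippocampal neuron (−0.53), 2 of 8 neuronal (−0.27) and 1 of 6 microglia markers (−0.23). A fall was also called for 3 of 5 endothelial (−0.45), 2 of 4 blood (−0.75) and 2 of 2 tested muscle markers (−0.72). All 6 choroid plexus markers had higher means (median 0.49), none past the adjusted test. These values carry the same dependence on the scaling as those of the subunit genes. The part of any marker list in the values of the subunit genes was not tested.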

How the data were processed

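Per the labels, RNA of the right hippocampus of single mice was labelled with Cy3 and hybridised to one-colour Agilent arrays. The authors scanned them with Feature Extraction 10.7.3.1 and deposited processed spot intensity values, with a table of log2 values that differed from the log2 spot values by a constant per array (largest SD 0.008). Control and outlier spots, and those dim enough to miss the scanner software's background criterion, were removed here, the 75th percentile of each array was subtracted on the log2 scale, and spots of a probe were averaged. The 2 genotypes of an age were contrasted by a linear model in limma 3.58.1 under R 4.3.3 (eBayes, two-sided, at least 2 values per group), with Benjamini-Hochberg adjustment over all probes. WT ages and changes of the genotype difference were fitted likewise. Single genes were also tested by exact permutation over mice. The number of arrays limits the precision.

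Genes named were fixed by role, called in a test, or the extremes of each complex. The members and all lists were chosen with earlier results of these data known. Scripts were tested on simulated data. No table column lacked a sample. Same-numbered arrays of both genotypes all deviated in the same direction only at 1 month (r = 0.511, 0.272, 0.191 and 0.208). At that age some arrays with different numbers did so too (0.356, 0.253 and 0.238, the others being negative). A pairing by number was therefore not established at any age. Alternatives covered dim and outlier spots, scaling, normexp background correction (on median signals), the authors' log2 values, probe choice, the fit and left-out mice. The values of 1 member gene are not reported here.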

Additional observations from a re-analysis of the deposited data

Results flagged for a closer look

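The genotype difference of Ndufa4 changed between ages by a test of the difference itself, by −1.41 from 1 to 3 months and by 1.47 from 3 to 12 months, and that of Ndufa8 by 0.79 from 3 to 12 months. The adjusted p of the Ndufa4 change from 1 to 3 months lay above 0.05 under 2 of 26 alternatives (median scaling, and without WT 1m replicate 4), and that of the Ndufa8 change under 18 of 24.

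Single mice stood apart from the other 3 of their group by Dixon's test in 14 of 183 groups tested. Chance gives about 1 in 20 for independent tests, but these share arrays and include genes named for extreme values. The count was therefore not compared with that rate. TgproNGF#3 replicate 4 of 1 month was low for Ndufa10 (2.11), Ndufs1 (3.23), Sdhc (1.81) and Uqcrc2 (3.65), and for the mean of complex II (2.95). WT replicate 1 of 1 month was high for Ndufs1 (3.77) and Sdha (3.51), and WT replicate 2 of that age was high for Atp5g1 (4.95). At 3 months TgproNGF#3 replicate 4 was low for the c-ring genes Atp5g1 (4.49) and Atp5g2 (4.40). Among the WT mice of 3 months, replicate 1 was high for Ndufa1 (4.17), replicate 2 low for Cox7a2l (4.39), and replicate 3 low for Ndufa4l2 (−2.80) and high for Ndufa8 (2.61).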

How the results depend on the processing

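Under 21 alternatives per genotype contrast (19 at 12 months), the fall of Ndufa4 at 3 months kept its sign and its side of the threshold, and no alternative called a member with a 2-fold change at 1 month. With the authors' values, 2 members were lower at an unadjusted p below 0.05 at 1 month. The calls and medians below moved by more than 1.5 times the count or the spread between mice, and the cause was not tested unless stated.

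At 3 months, dropping the fold threshold by construction gave 2 lower members (adjusted p) or 3 higher and 20 lower (unadjusted p). The 2 lower members at an adjusted p became 1 with dim spots kept, the percentile over all spots, median scaling, quantile normalization, normexp, the authors' values, the array row as a block or the replicate block, and 11 in 1 fit over 22 arrays. The 0 higher members became 2 with the percentile over all spots, the authors' values or 1 fit over 22 arrays and 1 with normexp. The members' median was 0.047 with dim spots kept, 0.043 with the percentile over all spots and 0.049 with normexp. At 12 months, dropping the fold threshold gave 2 higher members and 1 lower, the median was 0.29 with median scaling (all genes 0.21), and relative to all genes it was 0.20 with normexp and lay below 0 with quantile normalization (0.09 against 0.11). With the replicate block, members at an unadjusted p below 0.05 numbered 12 lower and 2 higher at 3 months and 3 higher and 1 lower at 12 months, and no count of calls with a 2-fold change moved within an age. It pairs arrays by number, a pairing that was not established at any age.

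In WT from 1 to 3 months, higher members numbered 30 with dim spots kept, 30 with the percentile over all spots, 27 with the authors' values, 5 with normexp, 2 with outlier spots kept or with detection on every array, and 0 with median scaling, quantile normalization or the mean of probes. Lower members numbered 2 with dim spots kept, the percentile over all spots or the authors' values, and 0 with normexp. The members' median was 0.34 with dim spots kept, 0.35 with the percentile over all spots, 0.27 with normexp, 0.29 with the authors' values and −0.34 with median scaling, and relative to all genes 0.12 with normexp. Sign changes were seen with dim spots kept, the percentile over all spots, normexp and the authors' values, in that order, for Ndufs1 (0.050, 0.057, 0.023 and 0.00887), Ndufv1 (0.090, 0.096, 0.076 and 0.048) and Sdhd (0.063, 0.069, 0.068 and 0.021). Ndufs8 changed sign in all of these but normexp (0.10, 0.11 and 0.058), and Uqcrc1 with dim spots kept (0.00085) and the percentile over all spots (0.0073). From 3 to 12 months the authors' values gave 2 higher and 1 lower member, the percentile over all spots 1 lower, and normexp a median of −0.19 relative to all genes.

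For the genotype difference from 1 to 3 months, lower members numbered 0 with median scaling, where Ndufa4 did not pass, and 2 with the mean of probes. The members' median was 0.10 with dim spots kept, 0.10 with the percentile over all spots, 0.12 with normexp and 0.053 with the authors' values. From 3 to 12 months, higher members numbered 1 with dim spots kept, the percentile over all spots, median scaling, quantile normalization, normexp, the authors' values or the replicate block, since Ndufa8 no longer passed. Lower members numbered 2 with the percentile over all spots or the authors' values and 1 with normexp. The median was 0.079 with dim spots kept, 0.082 with the percentile over all spots, 0.099 with normexp and 0.068 with the authors' values, and −0.011 relative to all genes with quantile normalization.

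Leaving out each mouse in turn gave the following ranges. At 1 month the median ran from −0.07 to 0.08 and relative to all genes from −0.12 to −0.02, with 0 calls. At 3 months, calls with a 2-fold change ran from 1 to 2 (2 without replicate 3 of either genotype), lower members at an adjusted p from 1 to 2 (1 without TgproNGF#3 replicate 2 or 3 or any WT mouse), higher members from 0 to 1 (1 without TgproNGF#3 replicate 4), the median from −0.13 to −0.05 and relative to all genes from −0.07 to 0.00. At 12 months, lower calls ran from 0 to 1 (1 without replicate 3 of either genotype), the median from 0.08 to 0.18 and relative to all genes from 0.03 to 0.11. In WT from 1 to 3 months, higher members ran from 0 to 2 (0 without 1m replicate 4 or 3m replicate 1 or 4, and 2 without replicate 2 of either age), lower members from 6 to 14 (6 without 1m replicate 1 or 3m replicate 4, 8 without 1m replicate 4 or 3m replicate 1 or 2), the median from −0.15 to −0.07 and relative to all genes from 0.25 to 0.36. From 3 to 12 months, lower members ran from 0 to 1 (1 without 1m replicate 1, which shares the fit), the median from −0.04 to 0.05 and relative to all genes from −0.06 to 0.01. For the genotype difference from 1 to 3 months, lower members ran from 0 to 1 (0 without WT 1m replicate 4, where Ndufa4 did not pass), the median from −0.16 to −0.05 and relative to all genes from −0.02 to 0.07. From 3 to 12 months, higher members ran from 1 to 3 (3 without TgproNGF#3 3m replicate 1, and 1 without TgproNGF#3 3m replicate 2, WT 3m replicate 1, 2 or 4 or any mouse of 12 months), the median from 0.17 to 0.28 and relative to all genes from 0.07 to 0.16.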
